A study of Oryza sativa with 2 samples.

Results

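The transcription factors examined here are the regulators of greening in rice: the GLK genes *OsGLK1* and *OsGLK2*, the GATA factor gene *Cga1*, the *HAP3A* gene, 3 HY5-like bZIP genes, and the phytochrome-interacting-factor-like genes *OsPIL13*, *OsPIL14* and *OsPIL15*. Members were taken by locus ID and not by a cut on their values, though with earlier results of these data known. The list held 10 genes. Of these, 9 have an entry among the 42152 of the deposited table, each an entry of its own that is shared with no other locus, and all 9 had a mean of at least 1 FPKM. *OsPIL15* (LOC_Os01g18290) was not analysed here. Leaves were sequenced from wild-type plants of Zhongjiazao 17, an *indica* early-season cultivar, and from *yl-1*, a yellow-leaf mutant out of an EMS mutant library made in that cultivar, with 1 library per genotype. The *yl-1* lesion is a base change in the coding sequence of *YL-1* that replaces 1 amino acid of the Mg-protoporphyrin IX monomethyl ester cyclase, an enzyme of chlorophyll synthesis. According to the labels, plants of both genotypes stood at 26°C under 300 μmol m−2 s−1 light with 12 h of light and 12 h of dark. How many plants went into each library, and which other EMS mutations *yl-1* carries, is not given in the sources used here.

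Greening depends on nuclear genes that answer to light and to the state of the chloroplast. GLK proteins switch on genes of the antenna, the photosystems and chlorophyll synthesis, and plants without them are pale. HY5, a bZIP factor that is degraded in the dark and accumulates in light, activates many of the same genes in *Arabidopsis*. The PIF proteins of *Arabidopsis*, bHLH factors to which the rice PIL proteins are related, hold chlorophyll synthesis back in the dark and are degraded after binding light-activated phytochrome. Cga1 is a GATA factor that promotes chloroplast development downstream of cytokinin, and HAP3A is a subunit of the complex that binds CCAAT boxes and is needed for full chlorophyll content in rice leaves.

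The genotype names of the libraries are uncertain. The table's columns were assigned by their names, but a supplementary table of the study prints most of these values under exchanged headings. For 17 of its 24 genes both values equal the deposited ones within 0.0051 FPKM with the headings exchanged, and for 0 genes with the headings as deposited. The value printed under wild-type equals the deposited *yl-1* column for 23 of the 24. For 6 of these 23 the value printed under *yl-1* equals neither deposited column, so an exchange alone does not account for it. In each of the 6 it differs from the deposited wild-type value in the first digit only. All 6 are chlorophyll synthesis genes that act before YL-1. None of the 9 members is in that table. The libraries are therefore called WT-labelled and *yl-1*-labelled after the deposited columns, directions are given for the *yl-1*-labelled library, and each turns around if the names are exchanged. *YL-1* itself stood at 671 FPKM in the WT-labelled library and at 1124 FPKM in the other. Its lesion is a coding change, and the level was not used to assign genotypes. The values are FPKM, fragment numbers scaled to transcript length and to the mapped fragments of the library, which summed to 738866 in the WT-labelled library and 823855 in the *yl-1*-labelled library. The number of fragments is unknown. Among 796 entries with a mean under 0.1 FPKM, the commonest ratio (*yl-1*-labelled over WT-labelled) was 1.13, with only 39 of these entries at or next to it, which may be the relative worth of 1 fragment. The leaf label was checked on *PsbO*, *PsaL*, *PSI-N* and *Psb28*, photosystem genes that stood between 387 and 5206 FPKM. Single IDs listed for meristem and flower were at 0 in both libraries, as was 1 of 2 listed for root, and the other root ID stood at 8.61 and 13.5 FPKM. The share of that signal in any result was not tested.

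The 9 members were all detected in both libraries, and their order of abundance was nearly the same in each. Of the 9, 6 had higher and 3 had lower values in the *yl-1*-labelled library, while 51.7% of all 14559 genes compared were higher there and 48.3% lower. No member reached a 2-fold difference with the pseudocount used (LOC_Os06g39960 did without it), against 6.15% of all genes past 2-fold in either direction. These comparisons use log2((FPKM + 1) ratio), in which the pseudocount of 1 FPKM shrinks the difference of low genes. The median over the members was 0.10 on this log2 scale, and 0.014 over all genes. After rescaling to an equal FPKM sum, the median of all genes moved to -0.12 and that of the members to -0.049, with 3 members higher and 6 lower, beside 35.7% of all genes higher. Among all genes past 2-fold, the share of higher ones moved from 40.7% to 29.0% under the same rescaling. Since each genotype has a single library, no replicate error and no test can be given, and each difference describes this pair of libraries. In whole leaves, fewer cells of a type and less RNA per cell cannot be told apart.

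**Figure D1:**
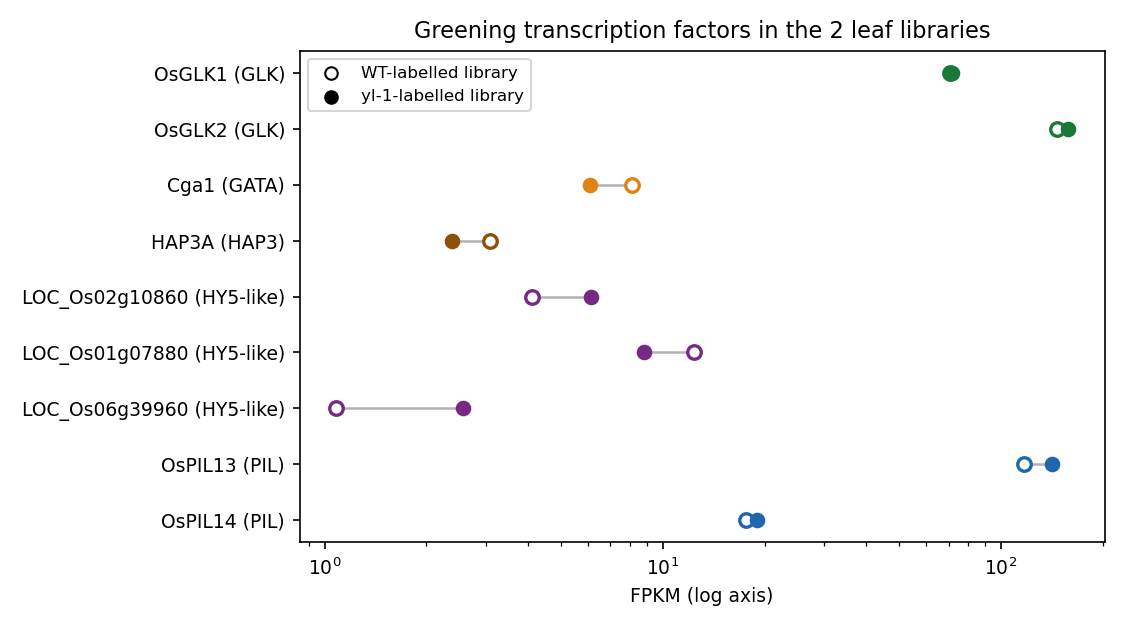
Level of each of the 9 measured members in FPKM (log axis), with the WT-labelled library as an open circle and the *yl-1*-labelled library as a filled circle, coloured by family. The GLK and PIL circles lie close together at 17.7 to 158 FPKM, and the widest gap is at LOC_Os06g39960, with 1.08 and 2.57 FPKM.

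In the WT-labelled library *OsGLK2* was the most abundant member, followed by *OsPIL13*, *OsGLK1*, *OsPIL14*, the HY5-like gene LOC_Os01g07880, *Cga1*, the HY5-like gene LOC_Os02g10860, *HAP3A* and the HY5-like gene LOC_Os06g39960. The highest and the lowest member differed by 135-fold in level there, and by 66.4-fold in the *yl-1*-labelled library. The first 5 places were the same in the other library. Below them, *Cga1* and LOC_Os02g10860 changed places, and so did *HAP3A* and LOC_Os06g39960. In the *yl-1*-labelled library these neighbours stood close together, at 6.08 and 6.15 FPKM and at 2.38 and 2.57 FPKM, and whether their order there exceeds the spread between plants cannot be told without replicates. The members together held 0.0515% and 0.0506% of the FPKM sum in the WT-labelled and *yl-1*-labelled libraries.

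Among the measured members, the GLK genes were the best-expressed family and had nearly equal levels in both libraries. *OsGLK1* (LOC_Os06g24070, chromosome 6) stood at 70.9 FPKM in the WT-labelled library and at 71.7 FPKM in the *yl-1*-labelled library. Its log2 ratio was 0.016, and only 3.72% of the 1719 genes from 30 to 100 FPKM differed less. *OsGLK2* (LOC_Os01g13740, chromosome 1) stood at 147 and 158 FPKM, in the same order. The log2 ratio of *OsGLK2* was 0.11, and 17.2% of the 617 genes from 100 to 300 FPKM differed less. The direction of neither gene held under every scaling, since rescaling to the same sum gave -0.14 for *OsGLK1* and -0.048 for *OsGLK2*. The level of *OsGLK2* was 2.07 times that of *OsGLK1* in the WT-labelled library and 2.20 times in the other. Transcripts of *OsGLK2* thus made up 67.4% and 68.8% of the GLK sum, which itself was 217 and 230 FPKM. In rank, *OsGLK2* was above 95.4% of the compared genes in the WT-labelled library and above 95.8% in the *yl-1*-labelled library, and *OsGLK1* was above 91.3% and 91.4%.

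The 3 HY5-like genes went different ways, while their sum was nearly equal in the libraries as deposited. LOC_Os01g07880 (chromosome 1), the most abundant of them, stood at 12.4 FPKM in the WT-labelled library and at 8.81 FPKM in the *yl-1*-labelled library. This is a log2 ratio of -0.45, and 76.3% of the 3381 genes from 10 to 30 FPKM differed less. LOC_Os02g10860 (chromosome 2) had the opposite sign, with 4.11 and 6.15 FPKM and a log2 ratio of 0.48. Of the 4831 genes from 3 to 10 FPKM, 78.9% differed less than LOC_Os02g10860. LOC_Os06g39960 (chromosome 6) was the lowest of all members in the WT-labelled library, at 1.08 FPKM, and stood at 2.57 FPKM in the *yl-1*-labelled library.

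The log2 ratio of LOC_Os06g39960 was 0.78, the widest among the members, and 86.5% of the 3683 genes from 1 to 3 FPKM differed less. It was also the only member past 1.5-fold, a difference that 17.3% of all genes reached. Its value depends on the pseudocount, as the plain ratio of its FPKM was 2.38, or 1.25 on the log2 scale. The sum of the 3 genes was 17.6 FPKM in the WT-labelled library and 17.5 FPKM in the *yl-1*-labelled library, a log2 ratio of -0.0032 that became -0.15 when rescaled to the same sum and 0.027 at the same upper quartile. LOC_Os01g07880 made up 70.5% of this sum in the WT-labelled library and 50.3% in the other. The share of LOC_Os02g10860 was 23.4% and 35.1%, and that of LOC_Os06g39960 was 6.16% and 14.7%. The level of LOC_Os01g07880 was thereby 11.4 times that of LOC_Os06g39960 in the WT-labelled library and 3.43 times in the *yl-1*-labelled library. These shares are ratios within a library and do not move with its scaling. The signs of the 3 log2 ratios were the same under every scaling and pseudocount that was run.

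**Figure D2:**
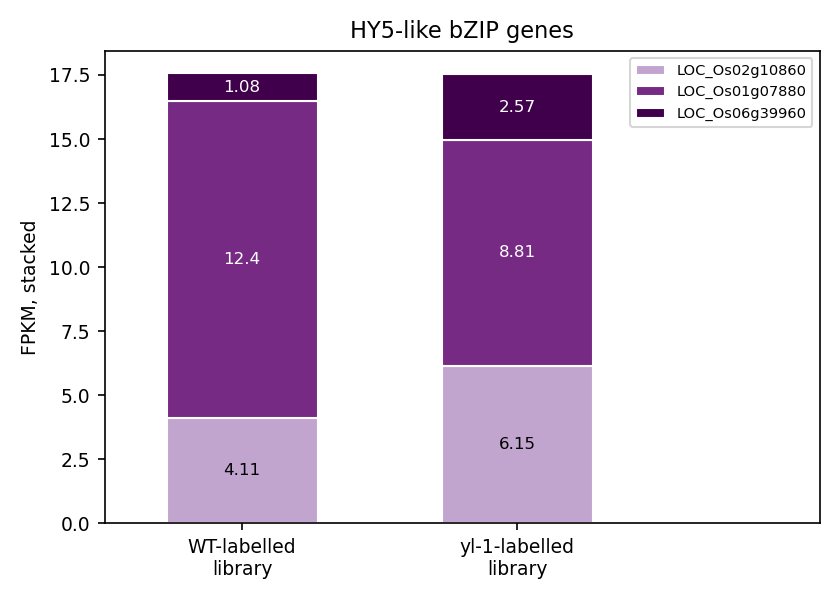
FPKM of the 3 HY5-like bZIP genes stacked for each library, with the value of each gene printed in its segment. The stacks reach 17.6 and 17.5 FPKM, while the segment of LOC_Os01g07880 is smaller in the *yl-1*-labelled library (8.81 against 12.4 FPKM) and the other segments are larger.

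Of the PIL members measured, *OsPIL13* carried most of the signal. *OsPIL13* (LOC_Os03g56950, chromosome 3), which promotes internode elongation in rice, stood at 117 FPKM in the WT-labelled library and at 142 FPKM in the *yl-1*-labelled library. The log2 ratio was 0.28, and 46.7% of the 617 genes from 100 to 300 FPKM differed less. Rescaled to the same sum the value of *OsPIL13* was 0.13. *OsPIL14* (LOC_Os07g05010, chromosome 7) was lower in level, with 17.7 and 19.0 FPKM. Its log2 ratio was 0.10, against which 23.9% of the 3381 genes from 10 to 30 FPKM differed less, and it turned to -0.049 when rescaled to the same sum. *OsPIL13* stood at 6.61 times the level of *OsPIL14* in the WT-labelled library and at 7.48 times in the *yl-1*-labelled library.

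The PIL sum of 134 and 161 FPKM had a log2 ratio of 0.26 (0.10 when rescaled to the same sum), and the GLK sum had 0.079, which turned to -0.077 when rescaled to the same sum. The GLK sum was 1.62 times the PIL sum in the WT-labelled library and 1.43 times in the *yl-1*-labelled library. Relative to the HY5-like sum, the GLK sum was 12.4 and 13.1 times as high and the PIL sum 7.65 and 9.18 times. These sums hold members only. *OsPIL15* is missing from them, as are 3 further IDs listed for the PIL family. In the WT-labelled and *yl-1*-labelled libraries LOC_Os12g41650 stood at 69.6 and 78.2 FPKM and LOC_Os03g43810 at 31.5 and 25.1 FPKM. LOC_Os05g04740 stood at 1.68 and 0.771 FPKM. With these IDs, whose family is not given by the sources used here, the PIL sum would exceed the GLK sum in both libraries. The order of the GLK and PIL sums above thus holds for members only.

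*Cga1* and *HAP3A* were low in level and had lower values in the *yl-1*-labelled library. *Cga1* (LOC_Os02g12790, chromosome 2) stood at 8.12 FPKM in the WT-labelled library and at 6.08 FPKM in the other. Its log2 ratio was -0.37, and 68.4% of the 4831 genes from 3 to 10 FPKM differed less. *HAP3A* (LOC_Os01g61810, chromosome 1) stood at 3.08 and 2.38 FPKM. The log2 ratio of *HAP3A* was -0.27, close to the middle of its level, as 52.0% of the 3683 genes from 1 to 3 FPKM differed less. Both kept their sign under every scaling and pseudocount that was run, with ranges of -0.50 to -0.34 for *Cga1* and -0.38 to -0.25 for *HAP3A*.

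**Figure D3:**
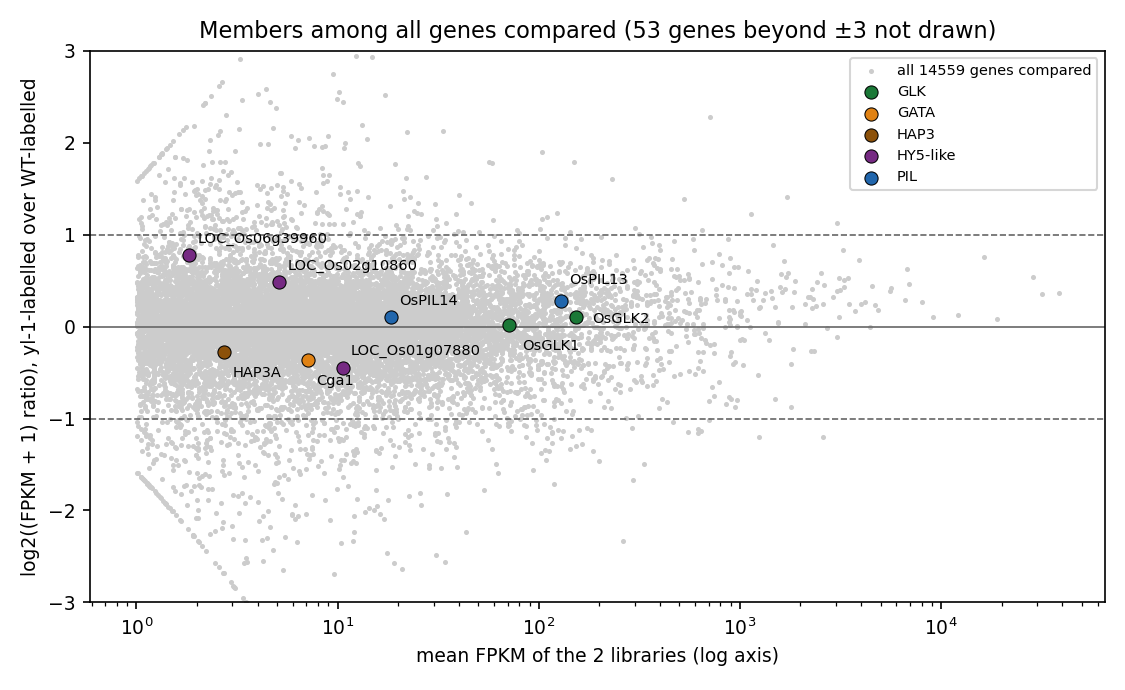
Log2((FPKM + 1) ratio) of the *yl-1*-labelled library over the WT-labelled library against mean FPKM (log axis) for the 14559 genes compared (grey, 53 of them beyond ±3 not drawn) and the 9 members (coloured by family). Dashed lines mark a 2-fold difference, and every member lies between them, from -0.45 for LOC_Os01g07880 to 0.78 for LOC_Os06g39960.

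The difference was wider among the weakly expressed members. The 5 members with a mean of at least 10 FPKM had a median size of the log2 ratio of 0.11, whichever its sign, and the 4 members under 10 FPKM had 0.43. LOC_Os01g07880, just above this level with a mean of 10.6 FPKM, had 0.45. Over all genes the median size was 0.24. In the bands that hold members it was 0.26 (1 to 3 FPKM), 0.22 (3 to 10), 0.22 (10 to 30), 0.25 (30 to 100) and 0.30 (100 to 300). The upper end was wider at the lowest level. The 90th percentile of the size was 0.93, 0.76, 0.71, 0.72 and 0.79 in the same bands. Past 2-fold were 8.96% of genes from 1 to 3 FPKM, 5.98% from 3 to 10 and 4.50% from 10 to 30, although the pseudocount shrinks low genes most. Low FPKM rest on fewer fragments, and without the number of fragments no counting error can be given for the 4 low members.

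Chlorophyll synthesis genes were set beside the regulators, since several of them are GLK targets in *Arabidopsis*. All 11 genes of this pathway that the study names by locus had higher values in the *yl-1*-labelled library, beside 51.7% of all genes. Their median log2 ratio was 0.40. Rescaled to the same sum, 10 of the 11 were higher, beside 35.7% of all genes, and their median was 0.24. The study chose the 11 as genes that differ between these libraries, so they are no independent evidence of direction or of size. How much of the order of the members against this list comes from that choice was not tested. Of the 11, 6 are the genes whose printed *yl-1* values match no deposited column. The photosystem genes *PsbO*, *PsaL*, *PSI-N* and *Psb28* come from the same list of the study, so the same limit holds for them. Their values were also all higher, with a median log2 ratio of 0.29 and 0.45 for *PsbO*. *PsbR*, a further photosystem gene of that list, is printed there with the opposite direction to these 4 and was not set beside them. Of the 93 genes of at least 1000 FPKM, 82.8% were higher, with a median of 0.30. The chlorophyll genes all lie below 1000 FPKM. From 1 to 300 FPKM, where all but *YL-1* lie, 49.4% to 55.1% of the genes of each band were higher. In the band of *YL-1*, from 300 to 1000 FPKM, it was 63.8%. The part of such a lean in the values of the chlorophyll genes was not tested. *CHLH*, the large subunit of Mg-chelatase, stood at 133 FPKM in the WT-labelled library and 229 FPKM in the *yl-1*-labelled library, a log2 ratio of 0.78. *PORB*, a protochlorophyllide oxidoreductase, stood at 61.5 and 88.9 FPKM (0.53), and *OsCAO1*, which makes Chl b, at 86.9 and 115 FPKM (0.40). The log2 ratio of *OsGLK1* was below that of all 11 genes, and that of *OsGLK2* was below 10 of them. *OsPIL14* also lay below 10 of the 11, and *OsPIL13* below 7. *Cga1*, *HAP3A* and LOC_Os01g07880, which were lower in the *yl-1*-labelled library, lay below all 11. LOC_Os02g10860 lay below 5 and LOC_Os06g39960 below 1. Against the 4 photosystem genes, both GLK genes and *OsPIL14* lay below all 4, as did *Cga1*, *HAP3A* and LOC_Os01g07880, while *OsPIL13* lay below 2 and the other HY5-like genes below 0. The lowest of the 11 was *HEME2*, at 0.073, whose entry is shared with a neighbouring locus. These orders compare genes within the same pair of libraries and were not tested.

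**Figure D4:**
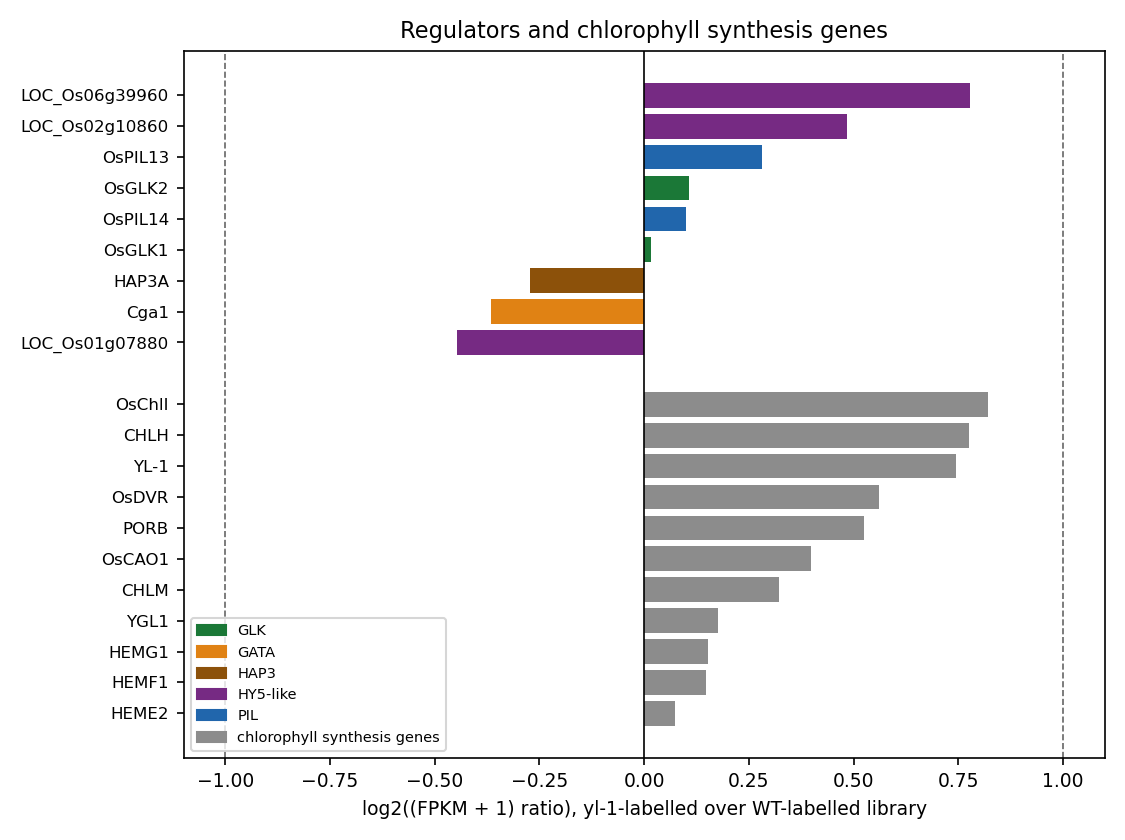
Log2((FPKM + 1) ratio) of the *yl-1*-labelled library over the WT-labelled library for the 9 members (coloured by family) and for 11 chlorophyll synthesis genes (grey), each set ordered by value. Dashed lines mark 2-fold. The members run from -0.45 to 0.78 on both sides of 0, and the grey bars from 0.073 to 0.82. Rescaling to the same sum turns *OsGLK1*, *OsGLK2* and *OsPIL14* below 0, and leaves 10 of the 11 chlorophyll synthesis genes above it.

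A further 13 locus IDs of related factors and light signalling were listed from general knowledge of rice nomenclature, and their names are given by none of the sources used here. Of these, 11 reached a mean of 1 FPKM, with 5 higher and 6 lower in the *yl-1*-labelled library and a median log2 ratio of -0.084. The 7 IDs listed for light signalling lay between -0.47 and 0.23, with 4 higher and 3 lower. One of the 11 passed 2-fold. LOC_Os06g37450, listed beside *Cga1*, stood at 115 FPKM in the WT-labelled library and at 54.2 FPKM in the *yl-1*-labelled library. Its log2 ratio was -1.07, and 97.1% of the 1719 genes from 30 to 100 FPKM differed less. LOC_Os06g37450 was singled out after its values were seen. *Cga1*, at a far lower level, had the same sign, as did 48.3% of all genes compared.

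**Figure D5:**
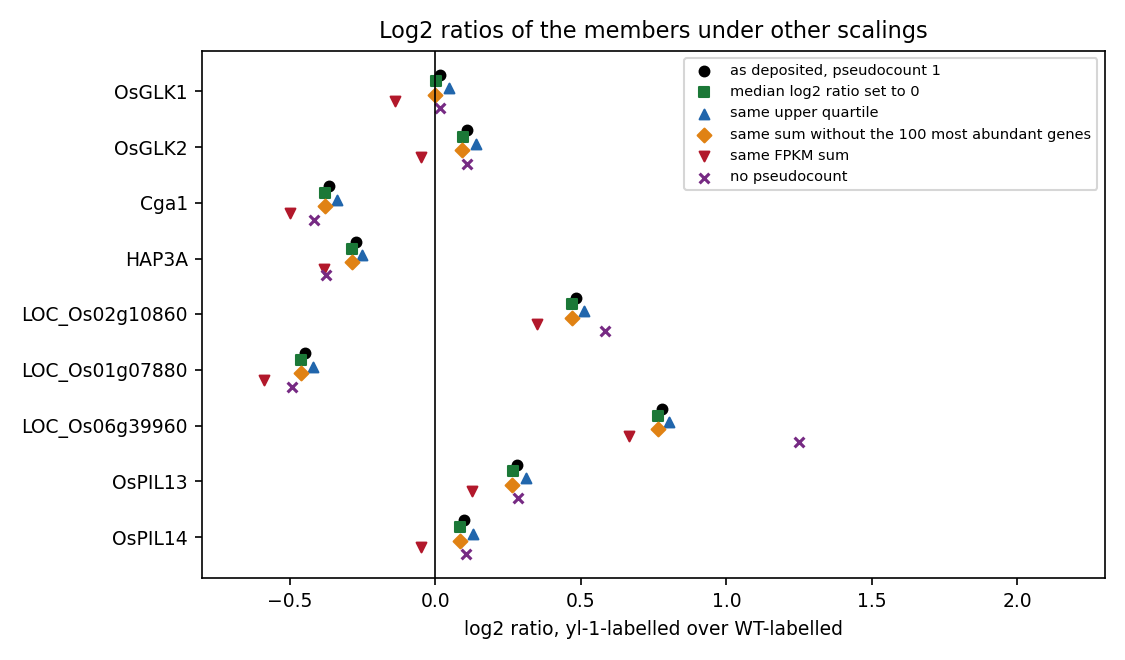
Log2 ratio of the *yl-1*-labelled library over the WT-labelled library for each of the 9 members as deposited, under 4 other scalings and without a pseudocount. *OsGLK1*, *OsGLK2* and *OsPIL14* lie near 0 and cross it when rescaled to the same FPKM sum, while the other 6 stay on their side, and LOC_Os06g39960 moves from 0.78 to 1.25 without a pseudocount.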

How the data were processed

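Leaf mRNA of wild-type and of *yl-1* was sequenced in 1 library each, 2 in all. The authors deposited FPKM values, for which the submitters' processing notes name TopHat, Cufflinks and Cuffdiff. Tool versions, the build, gene models and any filter were not given in the sources used here. Columns were assigned by name, and 0 columns of values were left unused. Entries were found by splitting the gene names at commas. Entries with a mean of at least 1 FPKM were compared as log2((FPKM + 1) ratio), and differences of at least 2-fold were counted. No test was possible with 1 library per genotype.

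Genes named are the members, the chlorophyll synthesis genes that the study names by ID, and related IDs. The members and lists were chosen with earlier results of these data known. Member names follow rice nomenclature. None of the 10 IDs was found in RefSeq genes of ASM3414082v1, which lists 3 of the names (*OsGLK1*, *OsGLK2*, *HAP3A*) on the chromosome of the ID. Proteins and promoters were not used here. Log2 ratios and counts were tested on simulated data. Alternatives were other pseudocounts, filters, scalings and a 1.5-fold threshold. Python 3.11.15, numpy 2.4.6, pandas 2.3.3 and matplotlib 3.10.9 were used.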

Additional observations from a re-analysis of the deposited data

How the results depend on the processing

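No paired analysis was possible because each genotype has a single library, and leaving out either leaves no comparison. Rescaling to the same FPKM sum gave 3 members higher in the *yl-1*-labelled library in place of 6 (35.7% of all genes in place of 51.7%). The median became -0.049 over the members and 0.24 over the chlorophyll synthesis genes, of which 10 in place of 11 were higher. The same rescaling turned *OsGLK1* (-0.14), *OsGLK2* (-0.048), *OsPIL14* (-0.049) and the GLK sum (-0.077), and took the PIL sum from 0.26 to 0.10. The HY5-like sum of -0.0032 became -0.15 under it and 0.027 at the same upper quartile. With the column names exchanged, chosen after the data were seen, 3 members were higher (48.3% of all genes) and the median was -0.10. Past the fold threshold stood 1 member, LOC_Os06g39960, at pseudocounts of 0.1 and 0.01, at none and at 1.5-fold. Against 895 genes past 2-fold (6.15% of those compared), pseudocounts of 0.1 and 0.01 gave 1368 (9.40%) and 1429 (9.82%). A mean of at least 5 FPKM gave 422 of 8879 genes (4.75%), and a 1.5-fold threshold 2515 (17.3%). Without a pseudocount there were 1311 (9.08%). Of 84 values of single members and family sums under the alternatives, 67 moved by less than 0.1 on the log2 scale, 12 moved further and 5 changed sign. The cause was not tested.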
